A study of Mus musculus with 2 samples.

Results

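The cells described here are those of the effector memory-like (EM-like) CD4+ T cell cluster of the nephritic mouse kidney in which no transcript of either CD8 chain was counted. They were chosen by the depositors' cluster name and by 0 unique molecular identifiers (UMIs, each standing for 1 captured transcript) summed over Cd8a and Cd8b1, and number 587 of the 733 cells of that cluster and of 7314 cells in all. Of these, 386 came from the wild-type (WT) library, where they made up 7.06% of the cells, and 201 from the Vsir-/- library, where they made up 10.9%. Nephrotoxic serum nephritis (NTN), an immune complex-driven glomerular injury, was induced in 8-week-old C57BL/6 mice with 200 µg of sheep IgG in complete Freund's adjuvant and, 4 days later, serum at 2 µL per g of body weight as the sample labels give it, although the study's methods name another volume. Kidneys were digested with liberase at 0.2 mg/mL for 30 minutes at 37 °C and single cells were profiled from their 3′ ends on a droplet platform. The 2 libraries differ in the gene Vsir, which encodes the inhibitory receptor VISTA: 1 is labelled WT and is described as sorted CD45+ cells, the other is labelled Vsir-/- and is described as all kinds of kidney cells. The study's methods instead describe sorted immune cells for both genotypes, so the sources differ on the Vsir-/- library, and if its label holds, genotype and sorting cannot be told apart. The labels do not give the number of mice behind either library. With 1 library per genotype there is no replicate and no test between genotypes, and every interval below covers counting error only.

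CD4+ T cells direct other immune cells through secreted cytokines, and the effector cells among them are grouped by what they make: type 1 cells make interferon gamma under the factor T-bet, type 17 cells make interleukin 17, and regulatory T cells carry Foxp3 and restrain the others. In crescentic glomerulonephritis both type 1 and type 17 cells are known to take part in the injury. VISTA acts as a brake on T cell activation, both as a receptor on T cells and as a ligand on myeloid cells.

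Vsir itself was read first. In the 386 WT cells there were 286 Vsir UMIs in 186 cells, a level of 141 counts per 1000000 UMIs (CPM), and in the 201 Vsir-/- cells 2 UMIs in 2 cells, or 1.58 CPM. The labels hold for the targeted gene.

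The 2 libraries stood apart in other ways as well. Xist, the transcript of the inactive X chromosome, was counted 1448 times in 189 of the 201 Vsir-/- cells and 0 times in the WT cells, whereas the Y-linked Eif2s3y and Ddx3y were counted 140 and 108 times in the WT cells and 0 times in the Vsir-/- cells. The study describes its mice as male, which the Vsir-/- library goes against, and sex and genotype cannot be told apart here. Some genes appeared under different symbols in each library: Aes had 1362 UMIs in the WT cells and 0 in the others, and Tle5, the newer symbol of the same gene, 0 and 839. Of 9191 symbols with at least 20 UMIs over the 587 cells, 253 had no UMI anywhere in the WT library and 122 had none anywhere in the Vsir-/- library. Kidney tubule transcripts, from a list of 30 genes, made up 184 CPM of the WT cells and 5333 CPM of the Vsir-/- cells, with 23 of the 30 genes at 0 in WT and none at 0 in Vsir-/-. Their most abundant gene was Spp1 (osteopontin) in Vsir-/- and Ass1 in WT. They made up 10566 CPM of Vsir-/- B cells and 5350 CPM of Vsir-/- neutrophils, against 456 and 188 CPM in WT. Libraries shared 5 cell barcodes among all their cells.

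Depth was similar between the libraries. A WT cell had a median of 4719 UMIs and 1880.5 genes, and a Vsir-/- cell a median of 5652 UMIs and 2103 genes. The pooled depths were 2027461 and 1268961 UMIs, so that 1 UMI over the pooled cells equals less than 1 CPM in either library. The median mitochondrial share was 2.84% and 3.28%.

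Few cells lay near the limit set by the Cd8 rule. Just outside it were 21 WT and 5 Vsir-/- cells with 1 Cd8 UMI, followed by 6 and 3 cells with 2 UMIs, whereas 65 and 33 cells held 5 or more. Cells without a Cd8 UMI were 78.9% of the cluster in WT (exact 95% interval 75.1 to 82.5) and 82.4% in Vsir-/- (77.0 to 86.9). Having no Cd8 UMI does not by itself place a cell in the CD4+ lineage: in the EM-like CD8+ cluster 93 of 197 WT cells and 13 of 28 Vsir-/- cells also had none, against 0 of 659 and 2 of 50 in the non-EM-like CD8+ cluster.

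The label was then checked against the 5 markers Cd4, Cxcr6, Rora, Maf and Icos. Cd4 was found in a minority of the cells, 92 of 386 in WT (23.8%, 19.7 to 28.4) and 76 of 201 in Vsir-/- (37.8%, 31.1 to 44.9), against 454 of 895 WT cells (50.7%) and 43 of 116 Vsir-/- cells (37.1%) in the non-EM-like CD4+ cluster, and 0.516% and 1.14% of B cells. Thinned to 1000 UMIs the shares were 7.98% and 5.05%, so the order of the libraries turned at equal depth and no difference in Cd4 detection is read from them. Its pooled level was 83.4 and 108 CPM. The chemokine receptor Cxcr6 stood at 642 and 600 CPM, the nuclear receptor Rora at 247 and 288 CPM, the transcription factor Maf at 434 and 365 CPM and the costimulatory receptor Icos at 151 and 239 CPM. All 5 levels in WT lay above those of the EM-like CD8+ cluster, where Cxcr6 was 51.0 CPM and Maf 10.9 CPM. A T cell receptor or CD3 transcript was present in 381 of the 386 WT cells and 200 of the 201 Vsir-/- cells. Such a UMI was also found in 14.6% of WT and 4.55% of Vsir-/- B cells, and in 26.9% and 5.06% of neutrophils. Most of the cells had no Cd4 UMI, which at this depth does not show that the transcript was absent.

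**Figure D1:**
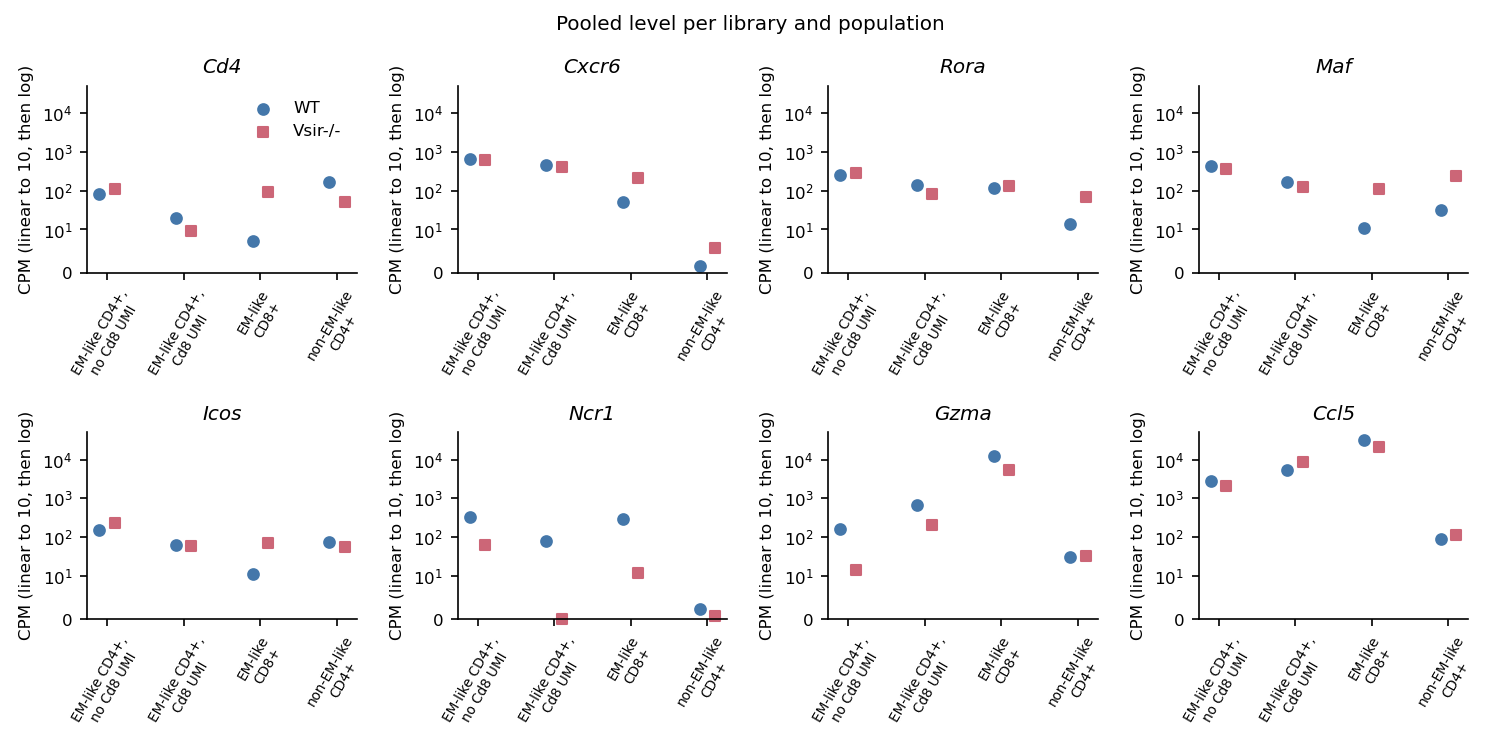
Pooled level (CPM, linear up to 10 and logarithmic above) of 8 genes in the cells without a Cd8 UMI and in 3 neighbouring populations, with 1 point per library (circles WT, squares Vsir-/-). Cxcr6, Maf and Icos in WT are highest in the cells without a Cd8 UMI, whereas Gzma and Ccl5 are highest in the EM-like CD8+ cluster.

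A set of NK cell receptor and adaptor transcripts divided the cells further. Ncr1 (the activating receptor NKp46), Klrb1c (NK1.1) and the signalling adaptors Fcer1g and Tyrobp were summed per cell, a set chosen after their values were seen. At least 3 of these UMIs were found in 184 of 386 WT cells (47.7%, 42.6 to 52.8) and in 32 of 201 Vsir-/- cells (15.9%, 11.2 to 21.7). Near that limit lay 51 WT and 24 Vsir-/- cells with 1 or 2 UMIs and 27 and 6 cells with 3 to 7, so the size of the Vsir-/- class depends on where the limit is set. Only 4 of the 184 and 1 of the 32 held a Cd4 UMI. The share was 66.5% in the WT EM-like CD8+ cluster (131 of 197) and 10.7% in its Vsir-/- part (3 of 28), and 36.9% and 6.98% in the cells of the same cluster with a Cd8 UMI. Non-EM-like CD4+ cells went the other way at low shares, with 0.447% in WT (4 of 895) and 3.45% in Vsir-/- (4 of 116). Of the summed genes, Fcer1g and Tyrobp are also in the macrophage list given below.

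These NK receptor cells stood apart from the NK cluster by their T cell transcripts. The T cell receptor and CD3 list summed to 2993 CPM in the WT cells with at least 3 NK receptor UMIs, to 6299 CPM in WT cells with fewer than 3 of these UMIs and no Cd4 UMI, and to 1120 CPM in the WT NK cluster. In Vsir-/- the same 3 values were 2861, 5322 and 481 CPM. Gzma was 205 CPM in the WT NK receptor cells and 15587 CPM in the WT NK cluster. The gamma delta T cell receptor gene Trdc was found in 33 of the 184 WT cells and 4 of the 32 Vsir-/- cells. Any gamma delta constant gene (Trdc or the Tcrg-C genes) was found in 118 of the 184 WT cells (64.1%) and 15 of the 32 Vsir-/- cells (46.9%). No cell type name beyond the cluster label is given to them here.

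**Figure D2:**
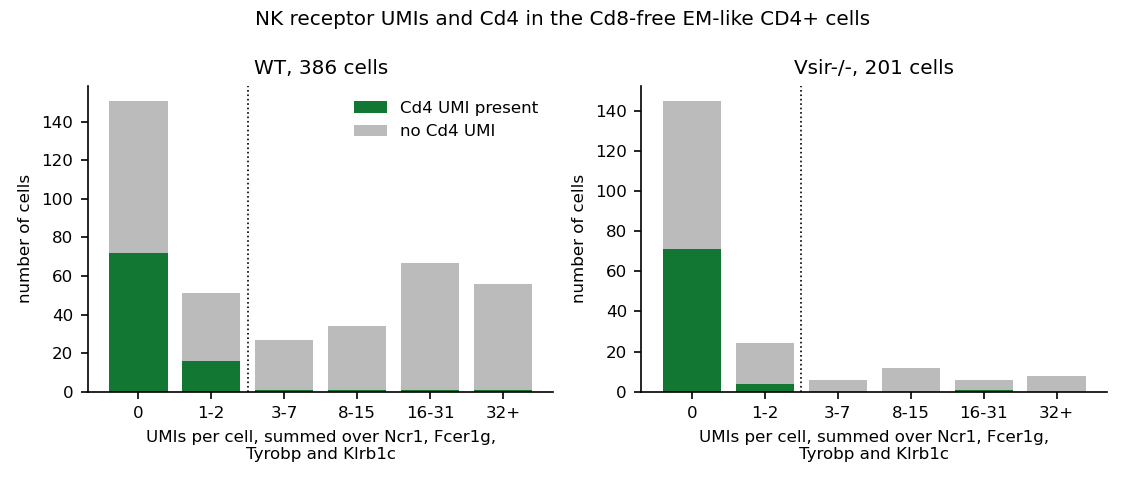
Number of cells (vertical axis) by UMIs per cell summed over Ncr1, Fcer1g, Tyrobp and Klrb1c (horizontal axis), for 386 WT cells (left) and 201 Vsir-/- cells (right), with cells holding a Cd4 UMI in green and the dotted line at 3 UMIs. WT has 184 cells right of the line and Vsir-/- 32, and the Cd4 UMIs lie almost entirely left of it.

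Because of this difference in makeup, the gene lists are compared between genotypes for all cells and for the 202 WT and 169 Vsir-/- cells with fewer than 3 NK receptor UMIs. For single genes the cells are also shown in 3 classes: those with a Cd4 UMI (92 and 76 cells), those with at least 3 NK receptor UMIs (184 and 32) and those with no Cd4 UMI and fewer than 3 NK receptor UMIs (114 and 94), called the remaining cells. The 4 WT cells and 1 Vsir-/- cell with both count in the first and second class.

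Across all genes, 874 of 9191 (9.51%) were at least 2-fold higher in the Vsir-/- cells and 529 (5.76%) at least 2-fold lower, with a pseudocount of 0.5 UMIs and a median log2 ratio of -0.03. Leaving out the symbols missing from a whole library, 621 of 8816 (7.04%) were higher and 407 (4.62%) lower. With few NK receptor UMIs the shares were 9.28% and 4.9% of 7895 genes. These shares are the background for the gene lists below, whose medians are given relative to the median of all genes.

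Transcripts of secreted cytokines were higher in the Vsir-/- cells more often than this background. The list was chosen with earlier results of these data known, so this excess is a description and not a test. Il17f and Areg reached the minimum of UMIs only with their Vsir-/- counts, and Il21 only with its WT counts. With a minimum of 5 UMIs the list's median log2 ratio over all cells was 0.91. Of 16 cytokine genes with enough UMIs, 9 were at least 2-fold higher and 1, Il21, at least 2-fold lower, with a median log2 ratio of 1.49 for all cells and 1.39 for cells with few NK receptor UMIs. The list's median was 0.23 in the NK cluster and -0.73 in B cells.

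Ifng, the type 1 cytokine, was counted 351 times in WT and 609 times in Vsir-/-, or at 173 CPM (155 to 192) and 480 CPM (443 to 520). It was thus 2.77-fold higher in the Vsir-/- cells (log2 ratio 1.47, 1.28 to 1.66). An Ifng UMI was found in 140 of 386 WT cells (36.3%, 31.5 to 41.3) and 114 of 201 Vsir-/- cells (56.7%, 49.6 to 63.7), against 1.34% of WT B cells and 1.14% of Vsir-/- B cells, whose median depths were 3426 and 3596.5 UMIs. After each cell was thinned to 1000 UMIs the shares were 14.1% and 27.8%, so the order held at equal depth.

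The size of the Ifng difference varied with the class of cell. Cells with a Cd4 UMI held Ifng at 112 and 405 CPM in WT and Vsir-/- (log2 ratio 1.85, 1.45 to 2.27). In the remaining cells the level was 142 and 648 CPM (2.19, 1.81 to 2.59). NK receptor cells stood at 218 and 278 CPM, and there the interval of the log2 ratio reached 0 (0.35, -0.07 to 0.75). In WT these NK receptor cells held 62.1% of all Ifng UMIs and in Vsir-/- 11.2%, so the cells behind the pooled Ifng level were largely of another class in each library. The NK cluster also differed, at 188 and 475 CPM, and the EM-like CD8+ cluster stood at 171 CPM in WT and 1295 CPM in its 28 Vsir-/- cells.

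Il17a, the leading type 17 cytokine, had 81 UMIs in 3 WT cells and 404 UMIs in 22 Vsir-/- cells. The levels were 40.0 CPM (31.7 to 49.7) and 318 CPM (288 to 351), a log2 ratio of 2.99 (2.65 to 3.36). A single WT cell held 66 of the 81 UMIs, and the top Vsir-/- cell held 96 of 404. Without the top cell of each library the levels were 7.45 and 244 CPM. Shares of cells with an Il17a UMI were 0.777% (0.161 to 2.25) in WT and 10.9% (6.99 to 16.1) in Vsir-/-, with 0 of 969 WT and 0 of 88 Vsir-/- B cells, which allow up to 0.31% and 3.41%. Thinned to 1000 UMIs, the shares were 0.532% and 7.07%.

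None of the cells with Il17a fell among the NK receptor cells: in WT 2 of the 3 and in Vsir-/- 15 of the 22 held a Cd4 UMI. Among cells with a Cd4 UMI the Il17a share was 2.17% in WT (2 of 92) and 19.7% in Vsir-/- (15 of 76), and among the remaining cells 0.877% (1 of 114) and 7.45% (7 of 94). The intervals of these classes overlapped within each library, and the median depths of the classes were 5307 and 3636.5 UMIs in WT. Only 1 WT cell and 4 Vsir-/- cells held both Ifng and Il17a or Il17f, out of 140 and 114 cells with Ifng.

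The type 17 cytokines Il17f and Il22 went the same way at low counts. Il17f had 12 and 42 UMIs (5.92 and 33.1 CPM, log2 ratio 2.48, 1.53 to 3.54) and Il22 had 8 and 25 UMIs, of which 17 came from 1 Vsir-/- cell. Il17a and Il17f neighbour each other on chromosome 1, and the 250 bases before each start site in RefSeq (build GRCm38.p6) are shown because both transcripts were higher in Vsir-/- and the genes are neighbours. The Il17a window lies at chr1:20730655-20730904 on the plus strand and the Il17f window at chr1:20784271-20784520 on the minus strand. Capitals mark matches on either strand to AGGTCA, a half-site of nuclear receptors, and to TGANTCA, a pattern that includes the AP-1 sites TGACTCA and TGAGTCA but is looser. The match to the latter pattern is neither of these sites, and the marked stretches do not overlap.
Il17a: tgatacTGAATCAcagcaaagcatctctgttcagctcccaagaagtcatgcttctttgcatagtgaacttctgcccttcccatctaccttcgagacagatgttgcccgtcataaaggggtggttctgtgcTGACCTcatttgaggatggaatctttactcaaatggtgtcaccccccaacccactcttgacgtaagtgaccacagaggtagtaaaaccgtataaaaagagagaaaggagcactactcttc
Il17f: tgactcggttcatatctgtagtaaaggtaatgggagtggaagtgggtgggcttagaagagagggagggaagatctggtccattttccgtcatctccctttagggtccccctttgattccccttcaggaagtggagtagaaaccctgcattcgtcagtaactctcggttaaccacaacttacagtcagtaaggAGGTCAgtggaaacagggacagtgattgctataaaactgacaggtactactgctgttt
Both windows hold 1 AGGTCA match, which 14.0% of 32851 RefSeq windows of this length hold, and the Il17a window also holds 1 TGANTCA match, found in 6.75% of them. The windows of Ifng and Il2, also higher in Vsir-/-, held neither pattern and are not printed. A match describes the letters and not a bound site, and its absence only that these letters are not in this window.

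Of the other type 17 genes, the chemokine receptor Ccr6 stood at 20.7 and 52.8 CPM and Tmem176a, which encodes a membrane protein, at 123 and 284 CPM. The receptor Il17re stood at 12.3 and 25.2 CPM. In all, 7 of 16 type 17 genes were at least 2-fold higher and 1, Il21, was lower, with a median of 0.68 (0.39 with few NK receptor UMIs, where 5 were higher). The transcription factors Maf and Rora had log2 ratios of -0.25 and 0.22, smaller than those of the cytokines. Over the genes of the list with enough UMIs in each, the median was 1.24 in the NK cluster and 1.06 in B cells.

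**Figure D3:**
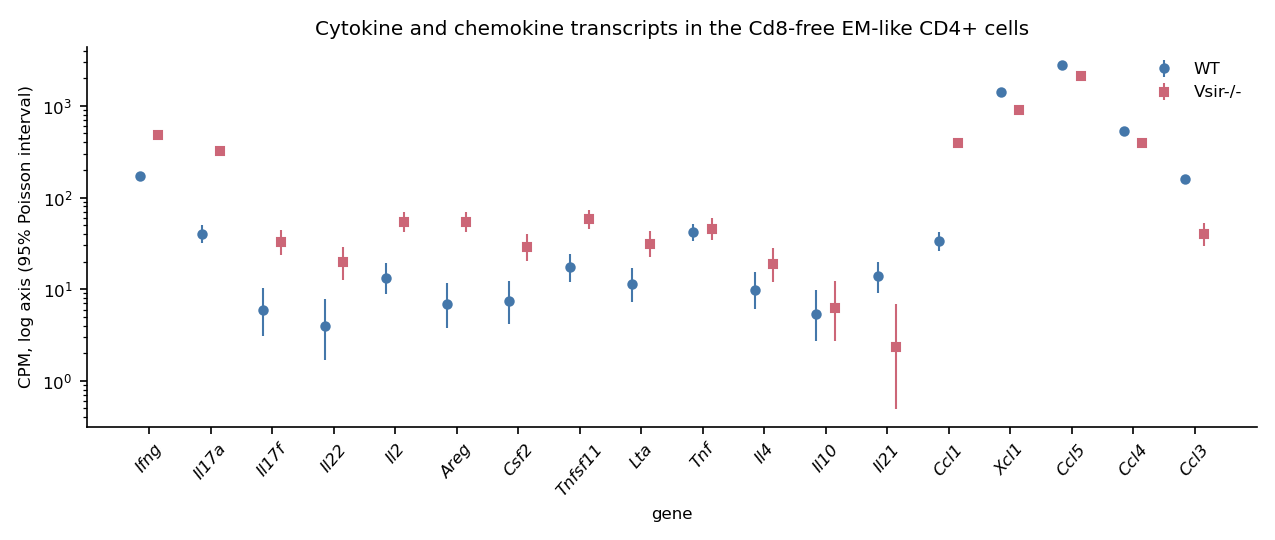
Pooled level (CPM, logarithmic axis) of 18 cytokine and chemokine transcripts in the cells without a Cd8 UMI, with 95% Poisson intervals (circles WT, squares Vsir-/-). Intervals of Ifng, Il17a, Il2 and Areg do not touch between the libraries, whereas those of Tnf and Il10 overlap.

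Several cytokines of activated T cells were also higher in Vsir-/-. Il2, the T cell growth factor, was found in 25 WT and 42 Vsir-/- cells at 13.3 and 54.4 CPM (log2 ratio 2.03, 1.37 to 2.73). Areg, the epidermal growth factor receptor ligand amphiregulin, was found in 5 and 22 cells at 6.91 and 54.4 CPM (2.98, 2.13 to 3.92), of which 17 of the 22 also held a Cd4 UMI. Csf2, encoding GM-CSF, stood at 7.40 and 29.2 CPM, and Tnfsf11, encoding RANKL, at 17.3 and 58.3 CPM. Tnf did not differ beyond counting error, at 41.9 and 45.7 CPM (log2 ratio 0.12, -0.38 to 0.62). Il21, a follicular helper and type 17 cytokine, had 28 UMIs in 3 WT cells and 3 UMIs in 1 Vsir-/- cell.

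Chemokines showed how much a pooled level can rest on few cells or on the makeup of the cells. Ccl1 had 68 UMIs in 5 WT cells and 504 UMIs in 3 Vsir-/- cells, and 2 of these 3 held 99.8% of the latter. Xcl1, a ligand for cross-presenting dendritic cells, was lower in Vsir-/- over all cells (1412 and 904 CPM, log2 ratio -0.64, -0.74 to -0.54) and higher with few NK receptor UMIs (1.27, 1.06 to 1.48). Among cells with a Cd4 UMI it stood at 159 and 545 CPM and among NK receptor cells at 2592 and 2015 CPM. Ccl5 likewise had log2 ratios of -0.39 over all cells and 0.48 with few NK receptor UMIs, and Nkg7, a granule protein gene, of -0.41 and 0.66. For these genes the direction of the pooled difference turned when the NK receptor cells were left out.

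**Figure D4:**
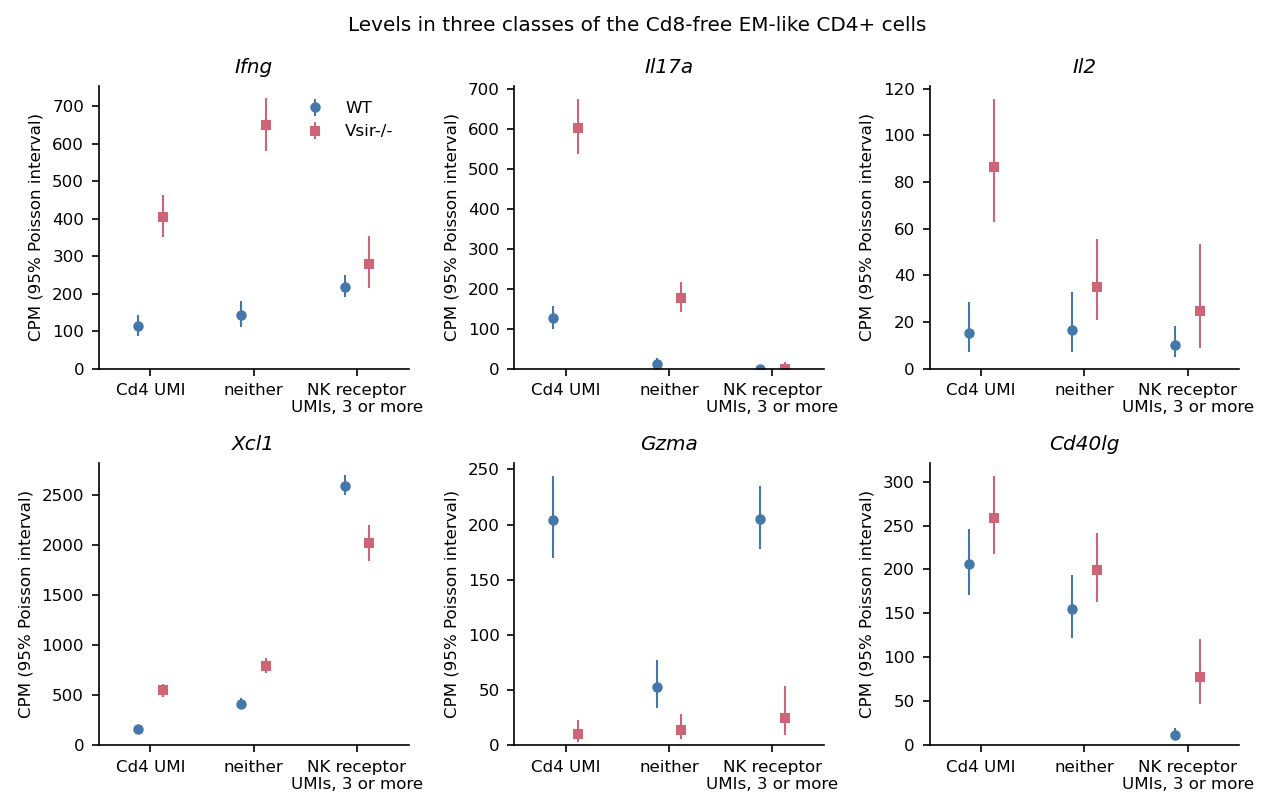
Pooled level (CPM, axis from 0) of 6 genes in 3 classes of the cells without a Cd8 UMI, with 95% Poisson intervals (circles WT, squares Vsir-/-). Ifng is higher in Vsir-/- in the classes with a Cd4 UMI and with no Cd4 UMI and fewer than 3 NK receptor UMIs (neither), Xcl1 is highest in NK receptor cells of both libraries, and Gzma is lower in Vsir-/- in every class.

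Few other genes of the type 1 program differed 2-fold. Of its 16 genes over all cells, 1 (Ifng) was at least 2-fold higher and 1 (Ccl3) at least 2-fold lower, with a median of -0.42. With few NK receptor UMIs 2 (Ifng and Xcl1) were higher and none lower, with a median of 0.08. Tbx21, which encodes T-bet, stood at 81.4 and 60.7 CPM (log2 ratio -0.42, -0.83 to -0.02) over all cells and had a log2 ratio of 0.24 (-0.36 to 0.85) with few NK receptor UMIs. The receptors Cxcr3 and Il18r1 had log2 ratios of -0.25 and -0.08.

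Foxp3, the regulatory T cell factor, did not differ beyond counting error over all cells (log2 ratio 0.53, -0.15 to 1.21). It had 41 UMIs in 21 WT cells (5.44%, 3.40 to 8.20) and 37 UMIs in 14 Vsir-/- cells (6.97%, 3.86 to 11.4), or 20.2 and 29.2 CPM. Its classes went opposite ways, at 18.4 and 49.9 CPM with a Cd4 UMI (1.44, 0.37 to 2.60) and at 56.4 and 21.5 CPM in the remaining cells (-1.39, -2.55 to -0.34), and with few NK receptor UMIs as a whole the log2 ratio was -0.03 (-0.73 to 0.66). No cell held both Foxp3 and Il17a or Il17f, and 1 cell in each library held both Foxp3 and Ifng. Of 12 genes of the regulatory T cell list, 3 were at least 2-fold higher (Tnfrsf9, Tnfrsf4 and Lrrc32, the last with 3 and 20 UMIs) and 1, Ikzf2, was lower, with a median of 0.42. With few NK receptor UMIs 1 of 10 was higher and 1 lower, and the median was 0.13. Ikzf2, which encodes Helios, stood at 302 and 148 CPM.

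The type 2 program held 1 gene of 7 at least 2-fold higher, Areg, and a median of -0.10 (-0.29 with few NK receptor UMIs). Gata3, its regulator, stood at 205 and 155 CPM, and Il4 had 20 and 24 UMIs. Of 8 follicular helper genes none was at least 2-fold higher and 3 were lower, namely Il21, Tox and Slamf6, with a median of -0.48. With few NK receptor UMIs 3 of 7 were lower, and the median was -0.99. Slamf6, a homotypic signalling receptor, stood at 90.3 and 18.9 CPM.

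Several genes of naive cells and of homing to lymph nodes were lower in the Vsir-/- cells. Of 11 genes, 6 were at least 2-fold lower and none higher, with a median of -1.15 over all cells and -1.10 with few NK receptor UMIs. The chemokine receptor Ccr7 had 56 UMIs in 29 WT cells and 3 UMIs in 2 Vsir-/- cells. The transcription factors Tcf7 and Lef1 stood at 184 and 71.7 CPM and at 82.9 and 24.4 CPM. Among cells with a Cd4 UMI Tcf7 had a log2 ratio of -1.71 (-2.21 to -1.22), so the lower level was also seen in the Cd4-bearing cells. In the NK receptor cells the list summed to 1351 CPM in WT and 1680 CPM in Vsir-/-. Its members went both ways there, with Klf2 (1.19, 0.95 to 1.43) and S1pr1 (1.24, 0.21 to 2.21) higher. Tcf7 (-0.78, -1.55 to -0.08) and Satb1 (-1.22, -1.84 to -0.65) were lower in the same class. The list's median was also -1.19 in the NK cluster, -1.26 in B cells and -1.32 in neutrophils.

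Some costimulatory genes were higher in the Vsir-/- cells. Of 12, 5 were at least 2-fold higher and 1, Cd27, lower, with a median of 0.62 (0.28 and 3 higher with few NK receptor UMIs). Cd40lg, the CD40 ligand through which helper cells act on B cells and macrophages, was found in 92 WT cells (23.8%) and 94 Vsir-/- cells (46.8%), at 100 and 202 CPM (log2 ratio 1.01, 0.74 to 1.28). Among cells with a Cd4 UMI the difference was smaller, at 206 and 259 CPM (0.33, -0.03 to 0.69). Tnfrsf4, encoding OX40, stood at 82.4 and 170 CPM over all cells and at 153 and 317 CPM in cells with a Cd4 UMI, but at 159 and 97.7 CPM in the remaining cells. Tnfrsf9, encoding 4-1BB, had 17 and 57 UMIs.

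Several cytotoxic genes were lower in the Vsir-/- cells, and fewer of them with the NK receptor cells left out. Of 14 genes, 6 were at least 2-fold lower and 1, Gzmk, higher (5 and 18 UMIs), with a median of -0.79 that was -0.40 with few NK receptor UMIs, where 3 of 13 were lower and 1, Serpinb9, a granzyme B inhibitor, was higher (log2 ratio 1.48). Granzyme A (Gzma) had 328 UMIs in 86 WT cells and 18 UMIs in 16 Vsir-/- cells, at 162 and 14.2 CPM (log2 ratio -3.51, -4.28 to -2.83). Its log2 ratio was -4.41 in cells with a Cd4 UMI and -3.06 in NK receptor cells. The former rests on few cells, with 122 UMIs in 14 of 92 WT cells and 5 UMIs in 5 of 76 Vsir-/- cells. Gzma is abundant in NK cells, where it stood at 15587 and 13759 CPM, and in B cells it stood at 52.3 and 9.53 CPM, a difference in the same direction. Perforin (Prf1) stood at 88.8 and 16.5 CPM over all cells, with a log2 ratio of -0.52 (-1.93 to 0.81) with few NK receptor UMIs. The inhibitory receptor chain Klrc1 had 624 and 35 UMIs and a log2 ratio of -3.48, and -2.44 with few NK receptor UMIs.

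Part of the immediate early, NF-kappaB feedback and heat shock genes were higher in the Vsir-/- cells. Of 20 immediate early genes 9 were at least 2-fold higher and none lower (median 0.99, and 1.13 with few NK receptor UMIs), and of 15 NF-kappaB feedback genes 5 were higher and none lower (0.62 and 0.75). Fos stood at 394 and 1224 CPM, Jun at 528 and 1555 CPM and the NF-kappaB inhibitor Nfkbia at 294 and 996 CPM. Atf3, a stress-induced factor, had 10 UMIs in 7 WT cells and 165 UMIs in 56 Vsir-/- cells. Of 12 heat shock genes 6 were higher and none lower, with a median of 1.06 (1.28 with few NK receptor UMIs), and Hspa1a stood at 160 and 1223 CPM. Fos, Jun, Nfkbia and Hspa1a were higher in Vsir-/- in each of the 3 classes of cell. Such genes are known to respond to cell handling, and the labels describe sorting for WT only, whereas the study's methods describe it for both genotypes. The part of sorting in these values was not tested. The immediate early median was 0.41 in the NK cluster, -0.58 in B cells and -0.55 in neutrophils. In that order the heat shock median was 0.65, 0.34 and 0.10 and the NF-kappaB feedback median 0.58, -0.23 and 0.23, so the NF-kappaB median of the NK cluster was close to that of these cells.

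Further lists follow, with their medians with few NK receptor UMIs in parentheses. Of 19 tissue residency genes 1 (Bhlhe40) was at least 2-fold higher and none lower, with a median of -0.07 (0.029). Leaving out the NK receptor cells, 3 of 18 (Rgs1, Rgs2 and Bhlhe40) were higher and 1 (Itga4) lower. Of 75 respiratory chain genes 1 was at least 2-fold higher, Atp5o, a symbol at 0 throughout the WT library, and the median was 0.30 (0.27). The respiratory chain median was 0.25 in the NK cluster, 1.04 in B cells and 0.97 in neutrophils, so its direction was not particular to these cells. Of 8 inhibitory receptors 1 (Cd200) was higher and 2 lower (Cd160 and Lag3), with a median of 0.22 (-0.25). None of 7 was higher and 2 (Cd160 and Pdcd1) were lower with few NK receptor UMIs. Glycolysis genes had a median of 0.12 (0.023) with 1 of 18 higher, and with few NK receptor UMIs 1 of 17 was higher and 1 lower. Among 26 interferon-induced genes 3 were higher (Gbp6, Iigp1 and Socs3) and 1 lower (Ifit3), with a median of -0.24 (-0.16). In the cells with few NK receptor UMIs 3 of the 26 were higher and 2 lower. T cell receptor signalling genes had a median of 0.06 with 2 of 21 higher, Nr4a1 and Cd6, and of -0.23 with few NK receptor UMIs, where 2 of 20 (Prkcq and Egr3) were lower and none higher.

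**Figure D5:**
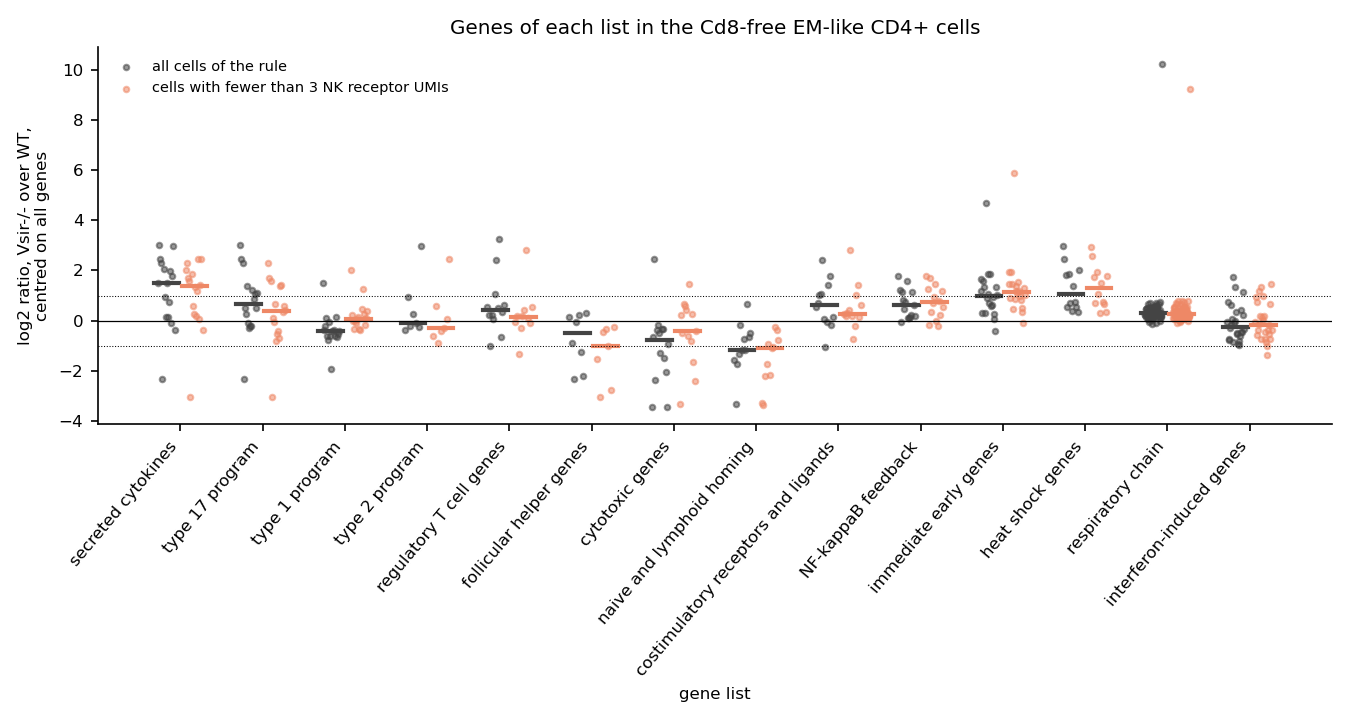
Log2 ratio of Vsir-/- over WT for each gene of 14 lists (points), relative to the median of all genes, with list medians as bars, for all cells without a Cd8 UMI (grey) and for those with fewer than 3 NK receptor UMIs (orange). Dotted lines mark 2-fold; the point above 9 in the respiratory chain list is Atp5o, a symbol at 0 throughout the WT library.

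Without regard to any list, the 10 genes with the largest ratios among those with at least 50 UMIs were Spp1, Rnasek, Atp6v0c, Nme2, Cd63, Gng10, Ndrg1, Tns1, Hspb1 and Igfbp7. Several were as unequal in every cell type examined: Nme2 had 15 and 717 UMIs here (log2 ratio 6.25) and log2 ratios of 7.44 in the NK cluster, 7.48 in B cells and 8.35 in neutrophils. The 10 smallest were Coro1b, Ptp4a1, Gzma, Klrc1, Taf6l, Klri2, Rnf149, Klrc2, Usp50 and Klrb1b, of which Coro1b had log2 ratios of -4.29 here and -4.23, -3.42 and -3.91 in those cell types. Restricted to genes at least 2-fold more abundant in these cells than outside the lymphocyte clusters, the highest were Ndrg1, Mpv17l, Ccl1, Il17a, Areg, Osgin1, Rpl13a, Il17f, Mppe1 and Hspa1b. The lowest were Klrc1, Klri2, Klrc2, Klrb1b, Styk1, Prf1, Ncr1, Klrb1c, Cpne7 and Klra9, most of them receptors of NK cells. Ndrg1, a stress- and hypoxia-induced gene, stood at 5.92 and 255 CPM, and its log2 ratio was 4.32 in the NK cluster and 5.19 in B cells.

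The nearest neighbours were the cells of the same cluster with a Cd8 UMI and the EM-like CD8+ cluster. Against the latter, 206 of 7378 genes (2.79%) were at least 2-fold higher in both libraries and 124 (1.68%) at least 2-fold lower, a description only, since the clusters were drawn on these genes. The 8 most raised were Il17a, Ccl1, Ramp1, Krt83, Tnfrsf4, Tnfsf11, Nrgn and Iigp1. Ramp1, a subunit of the receptor for the neuropeptide CGRP, stood at 143 and 206 CPM here, at 2.43 CPM in WT EM-like CD8+ cells and at 0 in the Vsir-/- ones. The 8 most reduced were Cd8b1 and Cd8a, which the rule sets, and Gzma, S1pr5, Cx3cr1, Gpx8, Zeb2 and Ccl5. Cx3cr1 stood at 12.3 and 5.52 CPM here and at 551 and 410 CPM in the EM-like CD8+ cluster, and Zeb2 at 28.1 and 43.3 CPM against 1121 and 506 CPM. Il17a had at most 1.29 CPM in the cells of the same cluster with a Cd8 UMI, and was at 0 in the EM-like CD8+ and non-EM-like CD4+ cells of both libraries.

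Transcripts of other cell types were also counted in these cells. Macrophage genes summed to 1889 and 735 CPM, of which the adaptor Fcer1g, shared with NK cells, was the most abundant. Of 8 macrophage genes 4 were at least 2-fold higher in Vsir-/- (C1qa with 8 and 18 UMIs, C1qb with 3 and 17, Csf1r with 7 and 21 and Apoe with 23 and 138) and 2 lower (Fcer1g and Tyrobp), with a median of 1.02. With few NK receptor UMIs 5 of these genes had enough UMIs, without C1qa, C1qb and Csf1r. Of the 5, 1 (Apoe) was higher and 2 lower, with a median of -0.38. The 2 lower were Fcer1g and Tyrobp, which belong to the set that defines these cells, so that choice limited their counts. No direction of the macrophage genes is read from this median. Among the NK receptor cells Csf1r (log2 ratio 4.20, 2.60 to 6.22), C1qb (3.03, 0.80 to 5.66) and Apoe (3.58, 2.74 to 4.50) were higher in Vsir-/-. Fcer1g was lower there (-0.76, -0.94 to -0.58). The part of macrophage transcripts in the NK receptor class and in the other values was not tested. B cell genes summed to 573 and 482 CPM, led by Ighm in WT and Cd74 in Vsir-/-, neutrophil genes to 281 and 123 CPM, led by S100a9, and endothelial genes to 92.7 and 376 CPM. NK cell genes summed to 1123 and 277 CPM, led by Klre1 in both. The tubule list summed to 129 and 4161 CPM in the NK cluster, so its difference was not particular to these cells, and its part in the gene counts above was not tested beyond the change of denominator given with the processing choices. Among the most abundant genes, Malat1, Tmsb4x, Actb, Tpt1 and Rps24, the difference was largest for Actb, at 16301 and 10249 CPM.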

How the data were processed

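The authors deposited 1 matrix of UMI counts (20299 symbols, 7314 cells, not normalized) with a table that gives each cell's library, cluster, total counts and mitochondrial percent. Per the labels and the submitters' processing notes, reads were processed with Cell Ranger 3.1.0, Seurat 3.2.3 and R 4.0.3 on build mm9. Cell filters and clusters were taken as deposited, and no doublet caller was run; cells over 3 times the median UMIs of their library (6 WT, 4 Vsir-/-) were left out as an alternative. Levels (CPM) are a gene's deposited counts, pooled by library, per 1000000 UMIs of the same cells. Intervals are exact at 95% (Poisson for levels, Clopper-Pearson for shares, conditional binomial for log2 ratios) and cover counting error only. Ratios of all genes used a pseudocount of 0.5 UMIs and at least 20 UMIs over both libraries. A count of 0 was read as allowing 3 counts. Shares were repeated after thinning to 1000 UMIs, which left out 10 WT and 3 Vsir-/- cells. The ratio was tested on simulated data. Cells and lists were chosen with earlier results of these data known, and the NK receptor set after its values were seen.

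Genes named are Vsir, the markers and members of the gene lists, the 10 largest and 10 smallest ratios among genes with at least 50 UMIs over both libraries and 4 in each, the same among genes at least 2-fold above non-lymphocyte clusters, the 8 most raised and 8 most reduced against the EM-like CD8+ cluster, the 5 most abundant genes and the leading gene of each list of another cell type. Xist, Eif2s3y, Ddx3y, Aes and Tle5 were chosen after their values were seen. Promoter sequences are from RefSeq (GRCm38.p6), matched by symbol for Il17a, Il17f, Ifng and Il2 (4 of 4). Python 3.11.15, numpy 2.4.6, scipy 1.17.1, pandas 2.3.3 and matplotlib 3.10.9 were used. Values of some single genes of the lists are not reported here.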

Additional observations from a re-analysis of the deposited data

How the results depend on the processing

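No paired analysis was possible because there is 1 library per genotype. The count of genes at least 2-fold higher (874) and lower (529) became 2216 and 1010 with a minimum of 5 UMIs and 191 and 146 with 100. After thinning to 1000 UMIs, where fewer genes pass the filter, it became 231 and 330, so the order of higher and lower turned. With only Cd4-bearing cells 335 were lower. The number of genes tested differed between these settings and is not reported here, so no excess in either direction is read from these counts. The cause of the changes below was not tested. With only Cd4-bearing cells the type 1 median became -0.0090, the cytotoxic median -0.31 and the heat shock median 0.77, and with fewer than 3 NK receptor UMIs (added after seeing the data, as was leaving out symbols absent from a library) the type 1, type 17 and cytotoxic medians became 0.079, 0.39 and -0.40. The macrophage median of 1.02 became -0.99 with Cd4-bearing cells, -0.40 without gamma delta transcripts, -1.34 after thinning and -0.38 with few NK receptor UMIs. The last value covers 5 genes, without C1qa, C1qb and Csf1r. Of these 5, Fcer1g and Tyrobp belong to the set that defines those cells, so it does not show a reversal. The gamma delta median of -0.67 reversed to 0.086 with few NK receptor UMIs, and Il16 to 0.39 after thinning. The log2 ratio of Ifng was 1.85 with Cd4-bearing cells, 1.27 after thinning and 2.03 with few NK receptor UMIs. For Il17a it was 2.26 with Cd4-bearing cells, 4.96 without gamma delta transcripts, 4.11 after thinning, 2.32 with few NK receptor UMIs, 4.27 as a mean over cells and 5.03 without the top cell of each library. Cells without a Cd8 UMI were 87.1% (WT) and 89.2% (Vsir-/-) after thinning, and 83.2% of WT with 1 Cd8 UMI allowed. Ifng shares were 14.1% and 27.8% after thinning, 17.9% and 41.3% at 2 UMIs, 21.7% and 40.8% of Cd4-bearing cells, and 22.8% of WT cells with few NK receptor UMIs. Shares with Il17a or Il17f were 4.35% and 19.7% of Cd4-bearing cells and 7.07% of Vsir-/- cells after thinning. Foxp3 shares were 2.39% and 2.53% after thinning, 8.70% and 14.5% of Cd4-bearing cells, and in WT 2.33% at 2 UMIs and 9.90% with few NK receptor UMIs. The denominator without tubule and mitochondrial UMIs moved none of the gene counts, list medians or cytokine ratios past these tolerances (1.5 times a count, 0.25 for a median, the interval of a ratio or share).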

Other observations

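T cell receptor beta variable genes were read in few cells, 44 of 386 in WT and 17 of 201 in Vsir-/-. The most frequent was Trbv12-2 in 6 of the 44 WT cells and Trbv3 in 6 of the 17 Vsir-/- cells. Mki67 or Top2a, genes of dividing cells, had a UMI in 62 WT cells (16.1%, 12.5 to 20.1) and 44 Vsir-/- cells (21.9%, 16.4 to 28.2), and in 4.52% and 5.56% after thinning to 1000 UMIs. In B cells the shares were 4.33% (3.14 to 5.81) in WT and 14.8% (8.11 to 23.9) in Vsir-/-. After thinning they were 1.58% and 6.94%, so the order of the libraries was not particular to these cells. A gamma delta T cell receptor constant gene (Trdc or the Tcrg-C genes) had a UMI in 157 WT cells (40.7%) and 63 Vsir-/- cells (31.3%), and in 118 of the 184 WT cells and 15 of the 32 Vsir-/- cells with at least 3 NK receptor UMIs. In cells with no Cd4 UMI and fewer than 3 NK receptor UMIs the order was the opposite, with 27 of 114 WT cells (23.7%, 16.2 to 32.6) and 43 of 94 Vsir-/- cells (45.7%, 35.4 to 56.3), whose median depths were 3636.5 and 5193.5 UMIs. After thinning to 1000 UMIs the shares were 14.3% (8.22 to 22.5) and 20.9% (13.1 to 30.7), and the intervals overlapped.

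Of 9 proliferation genes 2 (Birc5 and Pclaf) were at least 2-fold higher and none lower, with a median log2 ratio of 0.26 relative to all genes, whereas with few NK receptor UMIs none of 8 was higher or lower and the median was -0.15. Of 23 cytokine receptors 1 (Ifngr2) was higher and none lower, with a median of -0.27. None of the 23 was higher and 3 (Il7r, Il6ra and Il9r) were lower with few NK receptor UMIs. Il7r, the interleukin 7 receptor of long-lived T cells, had log2 ratios of -0.72 and -1.10 relative to all genes in these sets of cells. Of 6 gamma delta T cell receptor genes 3 (Trdc, Trdv4 and Tcrg-C4) were lower, with a median of -0.67. With few NK receptor UMIs 1 of 5 (Tcrg-C2) was higher and 1 (Trdc) lower, and Tcrg-C4 turned from -1.10 to 0.92. Of 6 innate-like T cell genes 3 (Klrb1c, Klrb1b and Fcer1g) were lower, with a median of -1.37. In contrast, Zbtb16, which encodes the innate-like T cell factor PLZF, had a log2 ratio of 0.70. With few NK receptor UMIs 1 of 3 was lower, with a median of -0.47. That gene was Fcer1g, which belongs to the set that defines those cells, so no direction is read from either value. None of the 13 mitochondrially encoded genes was 2-fold apart (median 0.36). Of 6 genes of type 2 innate lymphoid cells 1 (Areg) was higher, with a median of -0.07.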
